A study of Mus musculus with 16 samples.

Results

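The kidneys described here came from 4 wild-type mice that drank water, out of 16 mice in the whole series, with 1 RNA-seq library per animal. They were chosen by their labels alone, as the wild-type genotype on the water treatment, and no value of the other 12 animals enters any result. The mice were C57BL/6 females aged 2 to 3 months. All were fasted for 12 h with free access to water before the kidneys were taken, and RNA came from a mid-kidney slice 3 mm thick, stored in RNAlater. The series also holds mice given sodium bicarbonate and mice lacking IRR, the pH-sensing receptor encoded by Insrr, and these wild-type mice on water are its untreated baseline. The baseline is that of a fasted female kidney of 1 inbred strain, since no fed animal and no male is among the 4. A slice holds cortex and medulla in an unknown proportion, and in such bulk RNA fewer cells of a type and less RNA per cell cannot be told apart.

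The nephron filters plasma at the glomerulus and then reclaims most of the filtrate in the proximal tubule, whose cells take up glucose, amino acids, phosphate and bicarbonate with sodium and secrete organic ions. The thick ascending limb and distal convoluted tubule reabsorb sodium chloride, and the connecting tubule and collecting duct adjust calcium, water, potassium and acid. Proximal tubule cells burn fatty acids, make ammonia from glutamine and, in fasting, make glucose from lactate, glutamine and glycerol, so that the kidney adds to the blood glucose supplied by the liver.

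The authors deposited 1 RPKM value per gene and library, a read count scaled by gene length and by library size, for 13430 genes, and 11795 of them had a mean of at least 1 RPKM. RPKM is scaled by length, so levels of different genes are set side by side on that scale throughout, and the depth behind each value is unknown. The summed RPKM of a library lay between 1488080 and 1602930, and the median gene had between 8.66 and 8.91 RPKM. A mean of at least 10 RPKM was reached by 6294 genes, at least 100 by 774 genes and at least 1000 by 39 genes, so the class of at least 100 RPKM held 5.76% of the table. The typical gene varied little between animals: the median coefficient of variation was 12.5%, over genes with a mean of at least 1. A spread over 2-fold, meaning that the highest library exceeded the lowest by that factor after adding 0.1 to each RPKM, was found for 1314 genes, or 11.1% of those with a mean of at least 1. That share was 19.0% of the 5501 genes from 1 to below 10 RPKM, 4.47% of the 5520 genes from 10 to below 100 and 2.97% of the 774 genes at 100 or more. In a short list, a count of 0 or 1 genes with such a spread is near these shares and says nothing particular about the list. Across genes, the log2 values of any 2 libraries had a Pearson correlation between 0.954 and 0.962, which describes likeness over genes that share a tissue and is not a test. Means are given with the SD over the 4 libraries, and 4 values in a row are replicates 1 to 4. With a single group there is no contrast to test, and no p-value is given.

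Transcripts of the mitochondrial genome stood far above all nuclear ones on the RPKM scale. The 13 mitochondrially encoded genes, which make core subunits of the respiratory chain and ATP synthase, took 72.5, 74.2, 73.6 and 70.5% of the summed RPKM of the libraries. One short gene made up most of this, since mt-Atp8, an ATP synthase subunit of 204 nucleotides, had 693207 ± 41484 RPKM. Its neighbour mt-Atp6, which overlaps it by 43 nucleotides and lies on the same transcript, had 54588 ± 2929 RPKM, so mt-Atp8 stood 12.7 times higher. Other overlapping neighbours were less far apart. The short mt-Nd4l stood at 5.09 times mt-Nd4, which it overlaps by 7 nucleotides. On opposite strands, mt-Nd6 and mt-Nd5 overlap by 14 nucleotides and averaged 25318 ± 3101 and 11883 ± 1301 RPKM. When RPKM was multiplied by gene length, mt-Atp8 held 29.3% of the total of the 13 genes, compared with 62.0% by RPKM alone. The part of its short length in the RPKM value was not tested further. The 3 mitochondrially encoded subunits of cytochrome c oxidase lay close together, with mt-Co1 at 51002 ± 1925, mt-Co2 at 51604 ± 1914 and mt-Co3 at 41409.7 ± 1773 RPKM. The lowest of the 13 was mt-Nd3, a complex I subunit, at 2925, 2739.7, 2108 and 1142 RPKM, the one mitochondrial gene with a spread over 2-fold. The mitochondrial genes are left out of the shares of summed nuclear RPKM below, while shares of all genes include them.

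Among nuclear genes the kidney slice was led by Gpx3, the plasma glutathione peroxidase that the proximal tubule secretes, with 11139.7, 11775, 13049 and 14580.4 RPKM. Gpx3 ranked first among nuclear genes in every library and alone held 3.01 ± 0.261% of the summed nuclear RPKM. Next came Kap, the androgen-regulated protein of proximal tubule cells, with 5998, 6299, 10271 and 13114 RPKM. Kap differed more between animals than Gpx3, being low in replicates 1 and 2 and high in replicates 3 and 4. The 10 highest nuclear genes held 9.47 ± 1.34% and the 100 highest 24.7 ± 1.15% of the nuclear sum.

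The 30 highest nuclear genes, of which 26 averaged at least 1000 RPKM, mixed kidney-specific products with genes every cell uses. Pck1, the cytosolic PEP carboxykinase that commits oxaloacetate to glucose synthesis, ranked 7 among nuclear genes at 1892 ± 920.5 RPKM. Transport was represented by Atp1b1, the beta subunit of the sodium pump, at 1561 ± 213 RPKM, by the phosphate transporter Slc34a1 at 1102 ± 145 RPKM and by Slc27a2, a fatty acid transporter and very-long-chain acyl-CoA synthetase, at 1706 ± 118 RPKM. Cltrn (collectrin), which carries amino acid transporters to the apical membrane, had 1105 ± 78.7 RPKM. Secreted products on the list included Spp1 (osteopontin) at 1654 ± 169.97, Klk1 (tissue kallikrein) at 1361 ± 128 and Umod (uromodulin) at 861 ± 85.6 RPKM. Iron storage appeared through Fth1 at 2925 ± 637 and Ftl1 at 1036 ± 132 RPKM, and ATP synthase through Atp5b at 1719 ± 24.4 and Atp5a1 at 1064 ± 47.5 RPKM. Fth1, Gapdh, Eef1a1 and Ppia have many processed pseudogenes, so their levels depend on how shared reads were split. Only Kap and Pck1 of the 30 had a spread over 2-fold, which is 2 of 30 where 2.97% of all genes at 100 RPKM or more did. Rida, a mitochondrial and cytosolic enamine deaminase, was among the steadiest of the 30 at 1385, 1355, 1373 and 1380.3 RPKM.

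**Figure D1:**
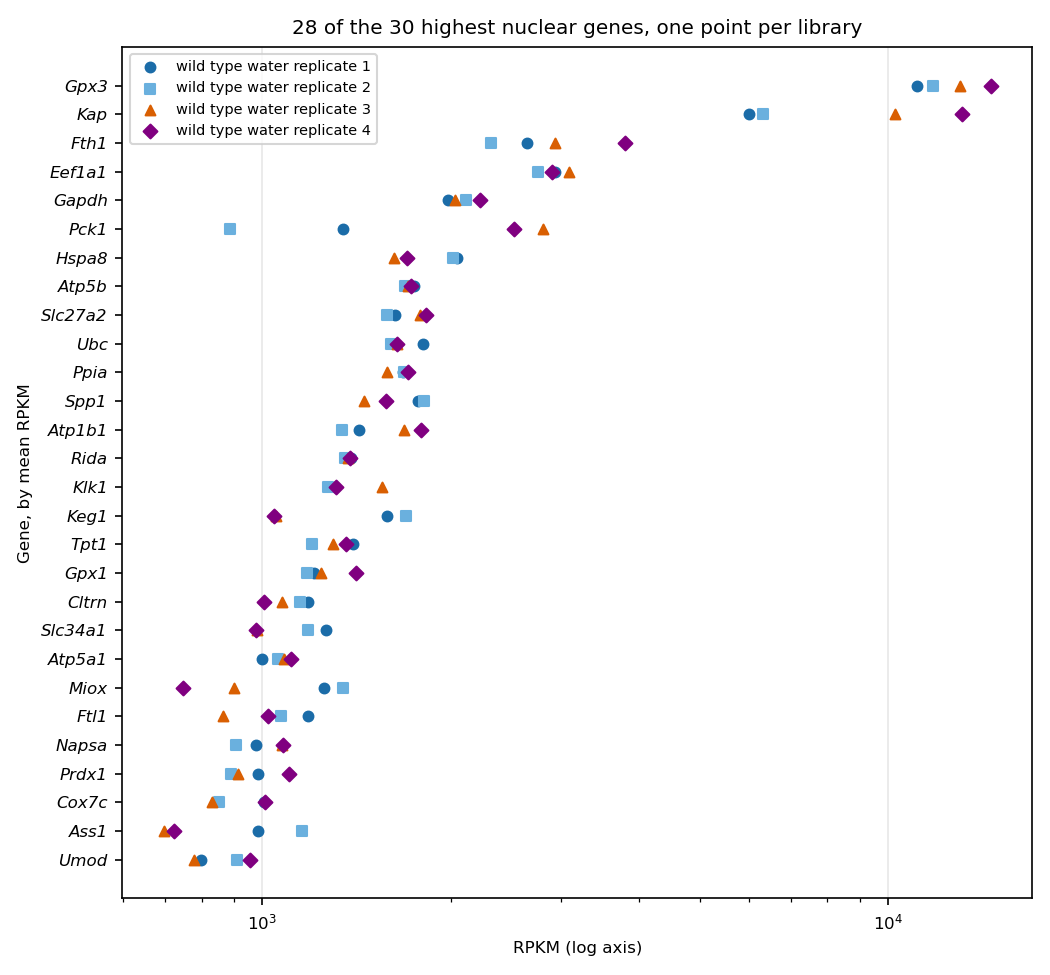
RPKM (log axis) of 28 of the 30 nuclear genes with the highest mean, in descending order, with 1 point per library. Gpx3 and Kap stand above the rest at means of 12636 and 8920.4 RPKM, and the points of Kap and Pck1 are the most widely spread.

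The labelled tissue was checked against marker genes of the nephron and of other cell types. Of 21 cell type lists, 19 had at least 3 measured members and could be ordered by the median RPKM of their members. The proximal tubule list led at 359 RPKM, ahead of the S1 markers at 198 and the S2 markers at 156 RPKM. The proximal tubule list stood above S1, and S1 above S2, in all 4 libraries with no overlap. S2 and connecting tubule markers, at 149 RPKM, overlapped, with S2 higher in 1 of 4 libraries. Haemoglobin followed at 122 RPKM, then the thick ascending limb at 55.2, S3 at 46.1 and the distal convoluted tubule at 31.5 RPKM. Genes shared by intercalated cells had a median of 22.8 RPKM, endothelium 18.3, principal cells 15.2 and thin limbs 13.2 RPKM. At the low end stood stroma and smooth muscle at 10.2, type A intercalated cells at 9.78, podocytes at 9.25, leukocytes at 5.99, type B intercalated cells at 5.93 and urothelium at 2.77 RPKM. Many neighbours in this order were not separated. Stroma exceeded type A cells, type A cells exceeded podocytes, and principal cells exceeded thin limbs in 2 of 4 libraries each. Connecting tubule against haemoglobin, haemoglobin against the thick limb and the thick limb against S3 kept their order in 3 of 4 libraries with overlapping ranges, while S3 exceeded the distal convoluted tubule in all 4 with no overlap. Adipose markers, at 24.3 RPKM, had the widest range between libraries as a ratio, with library medians from 6.57 to 81.8 RPKM. In RPKM units haemoglobin ranged more widely, from 54.8 to 229. A median over markers reflects the genes on the list as well as the amount of the cell type, so the order is one of marker levels, not of cell numbers.

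**Figure D2:**
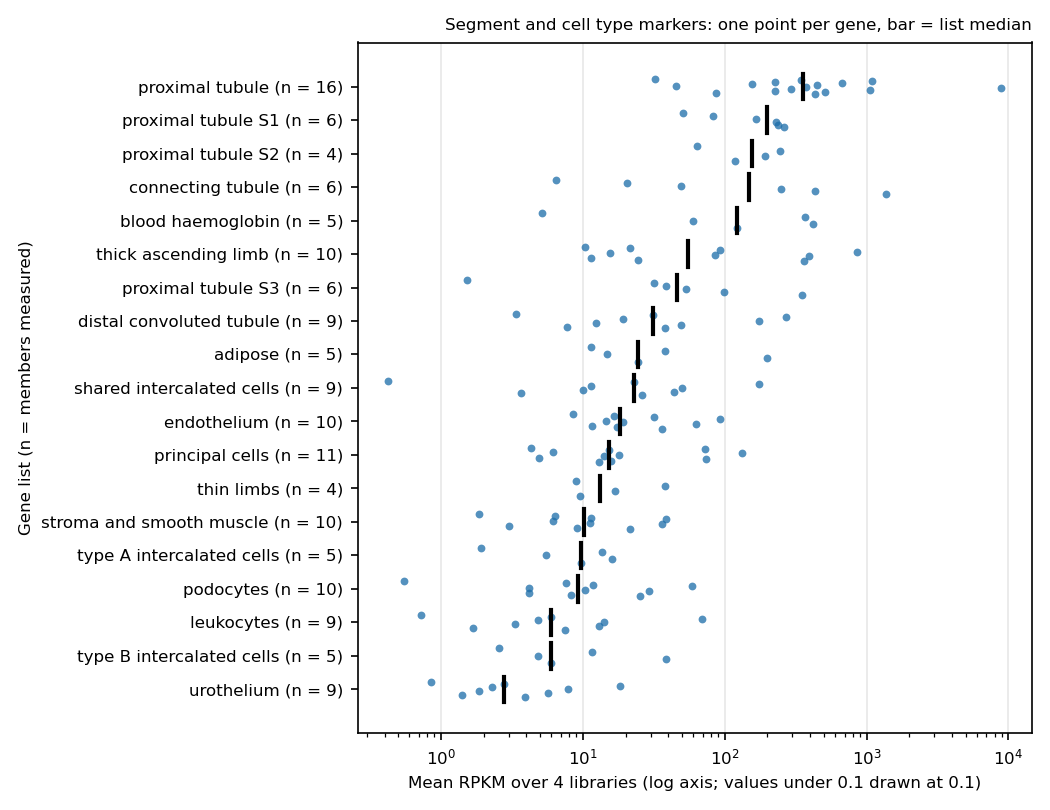
Mean RPKM (log axis) of the markers of each cell type over the 4 libraries, with 1 point per gene and a bar at the list median. The general, S1 and S2 lists of the proximal tubule have the highest bars, with 359 RPKM for the general list, S3 lies lower at 46.1, and urothelium is lowest at 2.77 RPKM.

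Proximal tubule markers were high in level. All 16 measured members of the general list exceeded 10 RPKM, and 13 averaged at least 100 RPKM. A spread over 2-fold was found for 3 of the 16, namely Kap, Gatm and Anpep, compared with 11.1% of all genes at 1 RPKM or more and 2.97% of those at 100 or more. The endocytic receptor megalin, Lrp2, had 222, 249, 222 and 213 RPKM and its partner cubilin, Cubn, had 82.7, 90.9, 83.6 and 92.1 RPKM. Amn, which anchors cubilin in the membrane, was lower at 31.3, 30.3, 33.4 and 33.5 RPKM. The transcription factor Hnf4a, which maintains proximal tubule identity, had 145, 158, 166 and 152 RPKM and differed little between animals. The split between replicates 1 and 2 and replicates 3 and 4 was the reverse of that of Kap for Miox, which breaks down inositol and had 1256, 1345, 903 and 747 RPKM, and for Gatm, which makes the creatine precursor guanidinoacetate and had 715, 711, 308 and 306 RPKM. Gatm was more than 2-fold higher in replicates 1 and 2 than in replicates 3 and 4, with almost equal values in replicates 1 and 2 and in replicates 3 and 4. The aminopeptidase Anpep was at 37.03, 34.4, 39.5 and 71.9 RPKM, with replicate 4 above the other three.

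The medians of the S1 and S2 markers exceeded the S3 median in every library. The S1 glucose cotransporter Slc5a2 (SGLT2), which reclaims the bulk of filtered glucose, had 256, 264, 209.6 and 217 RPKM, compared with 29.5, 26.4, 34.6 and 36.8 RPKM for Slc5a1 (SGLT1), which reclaims the remainder in S3. Their ratio was 8.68, 9.99, 6.05 and 5.90. The basolateral bicarbonate exit carrier Slc4a4 (NBCe1) had 190.3, 235, 253 and 235 RPKM and the neutral amino acid carrier Slc6a19 had 146, 179.8, 160.2 and 183 RPKM. Among S2 genes, the organic anion exchangers Slc22a6 (OAT1) and Slc22a8 (OAT3) averaged 119 ± 15.7 and 193 ± 6.65 RPKM. In S3, Slc7a12 had 280.1, 366, 336 and 428 RPKM while the cystine and aspartate carrier Slc7a13 had 1.35, 1.91, 1.05 and 1.80 RPKM. In mice Slc7a12 is known as a female-biased and Slc7a13 as a male-biased kidney transcript, and Slc7a12 stood 239.5 ± 57.98 times above Slc7a13 in these females. Sex chromosome genes were not analysed here.

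The thick ascending limb was marked by Umod, the most abundant protein of normal urine, at 798, 911, 779 and 955 RPKM, and by the furosemide-sensitive cotransporter Slc12a1 (NKCC2) at 344, 396, 430.2 and 392 RPKM. Egf, which this segment secretes, had 298, 309.96, 433 and 406 RPKM, with replicates 3 and 4 above 1 and 2. The paracellular magnesium channel genes Cldn16 and Cldn19 were lower, at 10.3 ± 1.24 and 21.6 ± 1.25 RPKM, as was the calcium-sensing receptor Casr at 11.3 ± 1.11 RPKM. None of the 10 thick limb markers had a spread over 2-fold. In the distal convoluted tubule the thiazide-sensitive cotransporter Slc12a3 (NCC) had 165, 187, 168 and 173 RPKM. Its regulators Wnk4, a kinase, and Klhl3, which directs WNK kinases to degradation, averaged 48.96 ± 3.10 and 12.4 ± 1.17 RPKM, and Stk39 (SPAK) averaged 31.5 ± 4.53 RPKM. The potassium channel subunit Kcnj16, also used in the proximal tubule and other segments, was the highest member at 271 ± 19.3 RPKM. Its partner Kcnj10 had 16.7, 20.2, 19.9 and 20.4 RPKM, with replicate 1 below the rest. Parvalbumin, Pvalb, was at 48.4, 38.3, 29.7 and 36.5 RPKM.

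The highest connecting tubule markers were Klk1 and the calcium-binding proteins. Klk1 had 1306, 1272, 1551 and 1314 RPKM, the calcium-binding S100g (calbindin-D9k) had 420.3, 432, 395 and 496 RPKM and Calb1 (calbindin-D28k) had 234, 292, 179 and 289 RPKM. The apical calcium channel Trpv5 that supplies these binding proteins was at only 5.37, 7.69, 5.36 and 7.42 RPKM, so the buffer transcripts exceeded the channel in every library. Trpv5 and Calb1 were both higher in replicates 2 and 4 than in replicates 1 and 3. The water channel Aqp2 of principal cells, which vasopressin inserts in the apical membrane, was likewise higher in replicates 2 and 4, at 121, 156, 94.2 and 157 RPKM. The basolateral Aqp3 averaged 73.7 ± 12.98 RPKM, and the vasopressin receptor Avpr2 12.9 ± 2.64 RPKM. Hsd11b2, which inactivates glucocorticoids and so leaves the mineralocorticoid receptor to aldosterone, was even at 71.5, 73.2, 69.4 and 75.1 RPKM. The medullary and collecting duct gene Fxyd4, at 4.63, 4.76, 4.59 and 3.31 RPKM, was low.

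Intercalated cells were read from their proton pump and anion exchangers. Atp6v1b1, the pump subunit typical of these cells, was one of the 10 steadiest nuclear genes among those with a standard symbol and a mean of at least 10 RPKM, at 50.3, 50.03, 49.4 and 50.2 RPKM. Atp6v0a4, which the proximal tubule also uses, had 142, 138, 212 and 207 RPKM, with replicates 3 and 4 above 1 and 2. The ammonia channels Rhcg and Rhbg averaged 44.3 ± 2.73 and 10.03 ± 0.754 RPKM, and Foxi1, the transcription factor that specifies the cells, 11.4 ± 1.69 RPKM. Pendrin, Slc26a4, the apical exchanger through which type B cells secrete bicarbonate, had 35.8, 46.6, 33.04 and 38.05 RPKM. The basolateral exchanger AE1, Slc4a1, which serves acid-secreting type A cells and also red cells, had 13.8, 9.49, 15.5 and 15.7 RPKM. Pendrin exceeded AE1 in all 4 libraries, by 3.02 ± 1.28 times. Insrr itself, a type B gene and the one deleted elsewhere in the series, was at 6.73, 4.82, 6.34 and 5.83 RPKM. Oxgr1, the type B receptor for alpha-ketoglutarate, had 11.7 ± 0.611 RPKM, above Insrr in every library.

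Cells outside the tubule were also represented. Nephrin, Nphs1, of the podocyte slit diaphragm had 7.98, 6.85, 7.08 and 10.96 RPKM, while Magi2 was listed at 0 in replicate 1 and at 0.602, 0.668 and 0.933 RPKM in the others. Of the endothelial markers, Emcn was at 92.2 ± 8.82 and Pecam1 at 36.2 ± 3.09 RPKM, and 0 of 10 had a spread over 2-fold, where 4.47% of genes from 10 to below 100 RPKM did. Of the macrophage markers, Csf1r averaged 14.1 ± 1.21 and C1qb 7.48 ± 0.846 RPKM. Cd74, the invariant chain of antigen-presenting cells, was the highest leukocyte marker at 75.3, 82.7, 68.3 and 49.7 RPKM. The pericyte marker Rgs5 was even at 37.6, 39.05, 39.95 and 38.4 RPKM. Of the matrix genes, decorin, Dcn, had 47.4, 29.5, 29.5 and 37.6 RPKM, highest in replicate 1, while collagen Col3a1 had 11.8, 13.6, 5.32 and 5.41 RPKM, higher in replicates 1 and 2. Uroplakins of the urothelium were low, and Upk1b, Upk1a and Upk2 were each highest in replicate 3, with Upk2 at 2.15, 1.52, 5.58 and 1.85 RPKM. Of the adrenal genes listed, Star alone had values, at 1.56, 2.22, 1.90 and 1.94 RPKM, and the other members were not analysed here.

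Sodium enters tubule cells through apical carriers and channels and leaves through the basolateral pump. The apical carriers stood in a fixed order in all 4 libraries, with Slc12a1 2.26 ± 0.221 times above Slc12a3, and Slc12a3 above the epithelial sodium channel. The channel subunits were Scnn1a at 26.6, 27.2, 37.7 and 38.6, Scnn1b at 13.7, 15.2, 15.1 and 18.96 and Scnn1g at 14.1, 14.5, 14.3 and 18.1 RPKM. The alpha subunit was thus the highest of the 3 in each library, and Slc9a3, the proximal sodium-proton exchanger, was not analysed here. Of the basolateral sodium pump, Atp1b1 had 1427, 1339.9, 1683 and 1794 RPKM, higher in replicates 3 and 4. Fxyd2, the gamma subunit that tunes the pump in kidney, had 363, 419.7, 421 and 413 RPKM. The other beta subunits were lower, with Atp1b3 at 73.5 ± 9.34 and Atp1b2 at 7.68 ± 1.33 RPKM. Fxyd1 was listed at 0 in all 4 libraries.

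For bicarbonate, the cytosolic carbonic anhydrase Car2 led at 252 ± 15.5 RPKM, followed by Slc4a4. The membrane-bound enzymes that work in the tubule lumen and at the basolateral face were lower, with Car12 at 94.4 ± 6.93, Car14 at 62.5 ± 7.75 and Car4 at 52.01 ± 12.7 RPKM. Car4, an enzyme of the brush border, had 68.8, 54.8, 43.8 and 40.7 RPKM, highest in replicate 1. None of the 11 members with a mean of at least 1 had a spread over 2-fold. Slc26a6, Slc26a7 and Slc4a5 averaged under 1 RPKM.

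Among carriers of sugars and monocarboxylates, the lactate carrier Slc5a12 was the highest at 262 ± 21.6 RPKM, while the higher-affinity lactate carrier Slc5a8 had 27.3, 28.9, 46.3 and 52.97 RPKM, higher in replicates 3 and 4. The basolateral glucose exit carrier Slc2a2 (GLUT2) had 70.01, 78.7, 76.6 and 107 RPKM and the fructose carrier Slc2a5 (GLUT5) 42.5, 49.7, 56.7 and 91.3 RPKM. Both were highest in replicate 4, and Slc2a5 was the only one of 14 carriers in this list with a spread over 2-fold. Among amino acid carriers, the heavy chain Slc3a1, which pairs with Slc7a9 to reclaim cystine, had 277, 306, 296 and 294 RPKM. Slc7a9 had 144, 138, 114 and 107 RPKM, so the heavy chain exceeded the light chain in every library. Slc1a1, the glutamate carrier, averaged 82.9 ± 7.47 RPKM. Slc38a3 (SNAT3), the basolateral glutamine carrier that feeds ammonia synthesis, had 27.3, 29.3, 69.4 and 66.4 RPKM, more than 2-fold higher in replicates 3 and 4 than in 1 and 2. It was the one of 15 amino acid carriers with a spread over 2-fold. Slc6a20a and Slc6a20b are close copies, so their split is uncertain.

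The phosphate carriers were led by Slc34a1 (NaPi-2a), with 1264, 1185, 981 and 976 RPKM, compared with 65.00, 57.1, 44.7 and 36.3 RPKM for Slc34a3 (NaPi-2c). Both were highest in replicate 1 and lowest in replicate 4, and their ratio was 19.4, 20.8, 21.96 and 26.9. The sulfate carrier Slc13a1 averaged 245 ± 9.18 RPKM, and the phosphate exporter Xpr1 25.7 ± 3.14 RPKM. Organic ion carriers were the transport list with the highest median, 116 RPKM over 20 measured members. Its highest member was the efflux pump Abcg2 at 239.7, 282, 276 and 278 RPKM, which was lowest in replicate 1. The proton-coupled exporter Slc47a1 (MATE1) had 223 ± 12.8 RPKM, the urate exchanger Slc22a12 179.8, 166, 278 and 259 RPKM and the carnitine carrier Slc22a5 145 ± 11.1 RPKM. The cation carrier Slc22a2 (OCT2) averaged 63.8 ± 9.96 RPKM. Slc22a28 and Slc22a30, members of a rodent cluster of close copies whose reads could be split between them, and Slco4c1 were low and had a spread over 2-fold.

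Water channels fell in the order Aqp1, Aqp2 and Aqp3, with Aqp1 of the proximal tubule and thin limb at 234, 232, 205 and 238 RPKM. Aqp1 exceeded Aqp2 in every library, by 1.78 ± 0.332 times. Aqp4 was at 6.56, 2.93, 6.17 and 9.17 RPKM and Aqp5 averaged 0.219 ± 0.103 RPKM. Among ion channels, Kcnj15, a proximal tubule potassium channel, had 181, 189, 272 and 271 RPKM, higher in replicates 3 and 4. The secretory channel Kcnj1 (ROMK) was at 88.4, 91.97, 76.6 and 87.4 RPKM. The chloride channel subunit Bsnd (barttin) averaged 24.3 ± 1.08 RPKM. The flow-activated channel Kcnma1 was listed at 0 in replicate 3, with 0.0875, 0.452 and 0.756 RPKM in replicates 1, 2 and 4. For calcium and magnesium, the leak claudin Cldn2 of the proximal tubule averaged 188 ± 13.8 RPKM, and Trpm7 stood 16.8 ± 1.03 times above its distal relative Trpm6. Of the medullary osmolyte genes, aldose reductase Akr1b3, which makes sorbitol, had 367, 313, 264 and 259 RPKM, the taurine carrier Slc6a6 50.6, 52.2, 83.03 and 94.9 RPKM and the betaine carrier Slc6a12 4.61, 6.01, 6.32 and 2.32 RPKM. Akr1b3 was highest in replicate 1, whereas Slc6a6 was highest in replicate 4.

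Among transport and metabolic lists, the highest medians were metabolic. They were those of fructose and polyol genes at 372 RPKM and antioxidant genes at 348 RPKM. The citric acid cycle followed at 177, fatty acid oxidation at 138, ketone body genes at 136, arginine, creatine and glycine genes at 128 and glycolysis at 119.6 RPKM. Gluconeogenesis had a median of 94.4 RPKM and cholesterol synthesis 10.9 RPKM. Of all 49 lists with at least 3 measured members, 14 had a median of at least 100 RPKM, the mitochondrially encoded and haemoglobin lists among them. The 5.76% of all genes at that level is a share of single genes, not of medians of chosen lists, so the count cannot be weighed against it.

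**Figure D3:**
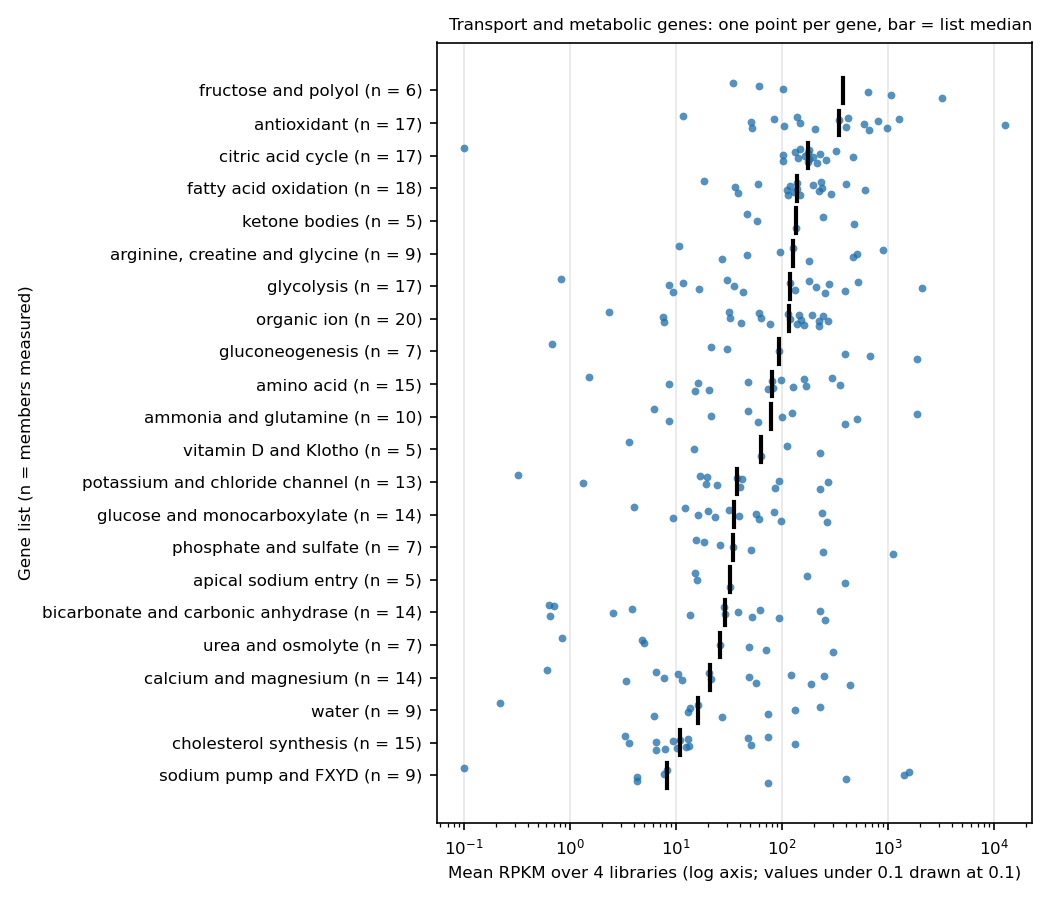
Mean RPKM (log axis) of the members of each transport and metabolic list over the 4 libraries, with 1 point per gene and a bar at the list median. Fructose and polyol genes have the highest bar at 372 RPKM and the sodium pump list the lowest at 8.18. Values under 0.1 RPKM, those of Idh3a and Fxyd1, are drawn at 0.1.

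Citric acid cycle genes, which complete the oxidation of fuels in the mitochondrion, were alike in level, since 15 of 17 members averaged between 102 and 324 RPKM. Of the 16 members above 0, 0 had a spread over 2-fold, near the 2.97% of all genes at 100 RPKM or more. Above the range of levels was Sdha, the flavoprotein of succinate dehydrogenase, at 359, 478, 665 and 348 RPKM, high in replicate 3, while its partner Sdhb was at 216, 186, 179.6 and 197 RPKM. Idh3a was listed at 0 in all 4 libraries although its partner subunits Idh3b and Idh3g averaged 179.8 ± 18.4 and 176 ± 11.7 RPKM. Idh3a is used by every respiring cell, so its 0 is read as a value of the table, not as absence of the transcript. Of 13430 genes, 13 were listed at 0 in all 4 libraries and 281 in 1 to 3 of them.

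Fbp1 and G6pc, irreversible enzymes of glucose synthesis, stood above the phosphofructokinase and hexokinase genes of the steps they oppose. Of the glycolytic kinases, hexokinase Hk1 had 38.7, 36.6, 50.9 and 44.02 RPKM, Hk2 averaged 0.815 ± 0.523 RPKM, and the phosphofructokinases Pfkp, Pfkl and Pfkm averaged 30.5 ± 7.48, 16.6 ± 1.83 and 8.54 ± 4.61 RPKM. The reversible enzymes shared with gluconeogenesis were much higher, with Aldoa at 517 ± 18.3, Eno1 at 395 ± 62.4 and Pgk1 at 279 ± 19.1 RPKM. On the gluconeogenic side, fructose bisphosphatase Fbp1 had 628, 600.2, 669 and 780.2 RPKM and glucose-6-phosphatase G6pc had 371, 380.2, 386 and 426 RPKM, each above Hk1 and every phosphofructokinase gene in all libraries. Slc37a4, which brings glucose 6-phosphate to G6pc, had 84.7, 81.2, 90.6 and 121 RPKM, and pyruvate carboxylase Pcx had 22.8, 21.8, 30.9 and 46.6 RPKM. Both were highest in replicate 4. Pck2, the mitochondrial form of PEP carboxykinase, was listed at 0 in replicate 3 and at 0.850, 1.02 and 0.817 RPKM in replicates 1, 2 and 4. Ketohexokinase Khk, the first step of fructose use, averaged 34.4 ± 2.61 RPKM.

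The antioxidant list held the highest nuclear gene. Beside Gpx3, the cytosolic Gpx1 had 1209.7, 1179.6, 1241 and 1413 RPKM, so Gpx3 was 10.01 ± 0.576 times higher. Peroxiredoxins Prdx1 and Prdx5, superoxide dismutase Sod1 and catalase Cat averaged 973 ± 96.2, 660.2 ± 73.2, 592 ± 58.8 and 418 ± 38.8 RPKM. The stress-induced heme oxygenase Hmox1 was low at 11.7 ± 1.82 RPKM. No antioxidant gene had a spread over 2-fold, near the share of all genes at that level, and the nearest to it was Gpx4, the peroxidase of membrane lipids, at 439, 219, 325 and 408 RPKM.

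Genes of cholesterol synthesis were unequal in level. Hmgcs1, the cytosolic HMG-CoA synthase, had 121, 129, 133 and 143 RPKM and the lanosterol demethylase Cyp51 73.9, 79.5, 69.3 and 70.5 RPKM. Fdft1, squalene synthase, had 4.61, 6.20, 4.76 and 10.2 RPKM, highest in replicate 4 and with a spread over 2-fold.

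Both kidney enzymes of vitamin D turnover had a spread over 2-fold. Cyp24a1, which inactivates calcitriol, had 12.03, 31.9, 10.8 and 4.17 RPKM, and Cyp27b1, which makes it, had 1.61, 1.89, 6.26 and 4.73 RPKM. Replicate 2 had the highest Cyp24a1, replicates 3 and 4 the highest Cyp27b1, and their ratio was 7.48, 16.9, 1.72 and 0.880. The vitamin D receptor Vdr and the FGF23 co-receptor Klotho, Kl, were steadier, at 60.4, 61.4, 76.1 and 55.2 and 116, 131, 97.4 and 102 RPKM.

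Differences between the 4 animals were wider for some lists than for others. Of 438 listed genes with values, 415 averaged at least 1 RPKM and 61 of those, or 14.7%, had a spread over 2-fold, compared with 11.1% of all genes at that level. The lists were chosen with earlier results of these data known, so such comparisons, here and below, describe the lists and are not tests. For each list and library, the median over members was taken of the log2 difference between the library and the gene's own mean of 4. The range of this deviation over the libraries had a median of 0.28 over 49 lists, and it passed 0.5 in 4 of them, namely adipose tissue, haemoglobin, fasting and PPAR alpha targets, and gluconeogenesis. Library by library, the shares of all genes that were highest there were 23.4%, 24.6%, 24.5% and 27.5%, and the shares lowest there were 30%, 24.9%, 22.8% and 22.4%.

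**Figure D4:**
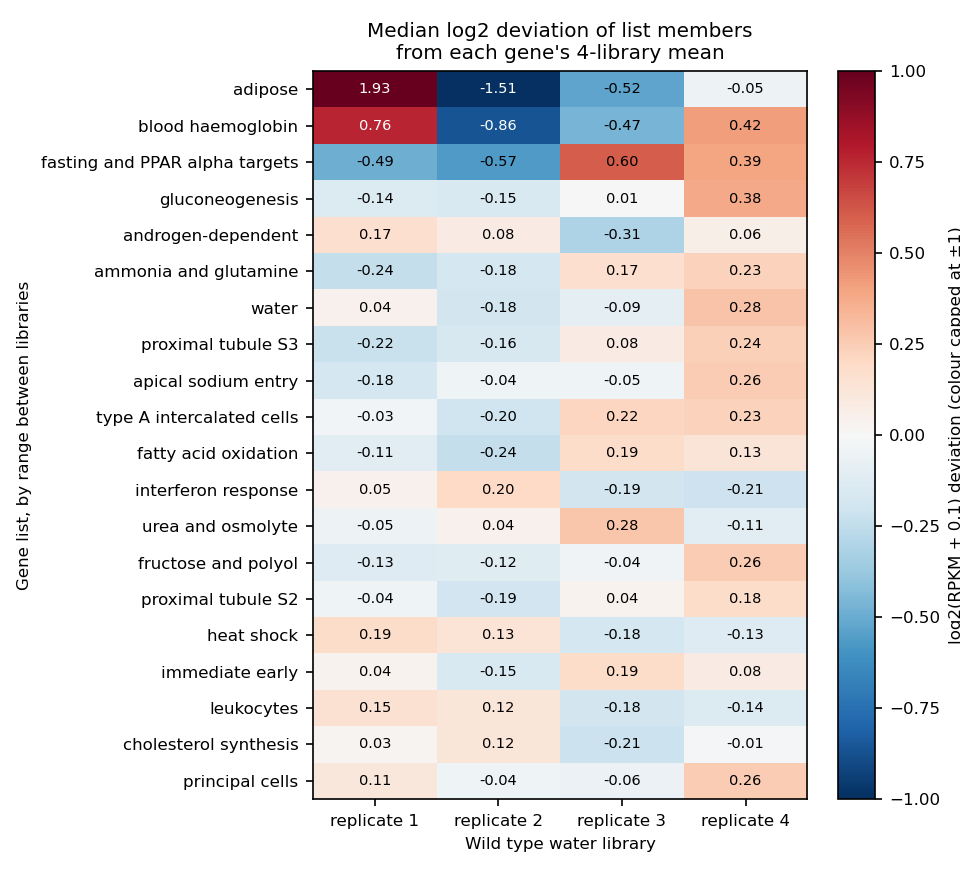
Median log2 deviation from the mean of 4 libraries, in each library, for the 20 lists with the widest range. Adipose markers stand at 1.93, -1.51, -0.52 and -0.05 in replicates 1 to 4, and fasting and PPAR alpha targets are below 0 in replicates 1 and 2 and above 0 in replicates 3 and 4.

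By this measure, fasting genes differed more between the animals than any other list of tubule functions. PPAR alpha is the nuclear receptor that switches on fatty acid oxidation and ketone synthesis when fatty acids reach the cell in fasting, with RXR as its partner on DNA. The list of its targets and of other fasting genes had a median deviation of -0.49, -0.57, 0.60 and 0.39. A spread over 2-fold was found for 7 of 10 members, compared with 11.1% of all genes at 1 RPKM or more. That share was 4.47% of genes from 10 to below 100 RPKM and 2.97% of those at 100 or more. All 10 members were highest in replicate 3 or 4, 5 in each, compared with 51.9% of all genes at 1 RPKM or more highest in either. The lowest library was replicate 2 for 7 members and replicate 1 for 3, compared with 24.9% and 30% of all genes. As the list was chosen with earlier results of these data known, these counts only describe it. Cyp4a14 and Cyp4a10, fatty acid omega-hydroxylases and close copies of each other, had 289, 275, 1127 and 1313 RPKM and 296, 284, 1078 and 1081 RPKM. Both were low in replicates 1 and 2 and high in replicates 3 and 4, with no overlap. Oxct1, which consumes ketone bodies and is not on this list, was steady at 497, 511, 453 and 448 RPKM. Vnn1, a pantetheinase, had 63.3, 69.3, 123 and 118 RPKM, Acot1, a cytosolic thioesterase, 16.8, 17.6, 37.02 and 27.3 RPKM, and Angptl4, an inhibitor of lipoprotein lipase, 35.8, 28.5, 52.8 and 64.5 RPKM. Pdk4, which shuts pyruvate dehydrogenase, kept another order, at 44.4, 24.4, 56.6 and 36.7 RPKM. Plin2, the coat of lipid droplets, hardly moved at 43.7, 35.97, 43.3 and 46.1 RPKM. The rate-setting carnitine transferase Cpt1a was at 108, 123, 152 and 134 RPKM. All 4 mice carry the same fasting label, and their food intake or weight is not given in the labels.

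The enzymes of fatty acid oxidation leaned the same way by less. Their median deviation was -0.11, -0.24, 0.19 and 0.13, and 11 of 18 members were lowest in replicate 2, compared with 24.9% of all genes. Acadm, the medium-chain acyl-CoA dehydrogenase, had 473, 448, 655 and 864 RPKM, and Ehhadh, the peroxisomal bifunctional enzyme, had 245, 272, 553 and 529.6 RPKM. Ehhadh was the only member of 18 with a spread over 2-fold. Acaa2, a mitochondrial thiolase, had 180.2, 164, 283 and 262 RPKM. Ppara itself was at 36.3, 36.5, 45.3 and 27.2 RPKM, with replicate 3 highest and replicate 4 lowest, so its own transcript did not follow the order of the targets.

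Pck1 had 1345, 889.7, 2809 and 2523 RPKM, so replicates 3 and 4 held the higher values and the 3.16-fold spread was the widest of the 30 highest genes. Glucose synthesis and ammonia synthesis share Pck1, and 8 of 10 members of the ammonia and glutamine list were highest in replicate 3 or 4, compared with 51.9% of all genes at 1 RPKM or more. Glud1, glutamate dehydrogenase, had 279, 299, 491 and 494 RPKM. Glutamine synthetase Glul, which removes ammonia, had 438, 421, 533 and 623 RPKM. G6pc did not share this order to the same degree, and the ratio of Pck1 to G6pc was 3.63, 2.34, 7.27 and 5.92. Replicates 3 and 4 thus held the higher values for Pck1, Glud1, Slc38a3 and Glul.

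**Figure D5:**
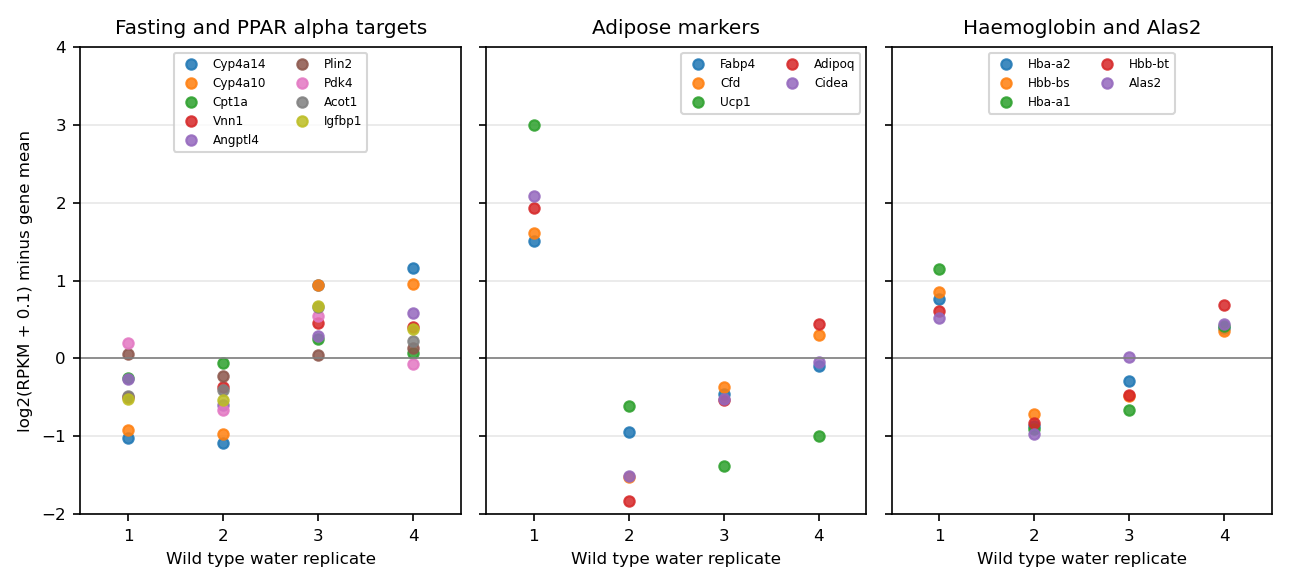
Log2 deviation of each gene from its mean of 4 libraries, by library, for 9 of 10 members of the fasting and PPAR alpha list and all members of the adipose and haemoglobin lists. Fasting genes lie mostly below 0 in replicates 1 and 2 and above 0 in replicates 3 and 4, while adipose and haemoglobin genes peak in replicate 1 for all 5 adipose members and 4 of 5 haemoglobin members.

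The 250 bases before the start of 3 of these genes are shown because they are the parts of the gene on which nuclear receptors, HNF1 and CREB can bind, and the 3 span glucose synthesis, mitochondrial oxidation and peroxisomal oxidation. They are RefSeq promoters of GRCm38.p6, at chr2:173152823-173153072 on the plus strand for Pck1, chr3:153944644-153944893 on the minus strand for Acadm and chr16:21787835-21788084 on the minus strand for Ehhadh, each printed 5′ to 3′ in the direction of the gene. Capitals mark AGGTCA, the core site of nuclear receptors, GTTAAT, the core of an HNF1 site, and CGTCA, the core of a CREB site, on either strand.
Pck1: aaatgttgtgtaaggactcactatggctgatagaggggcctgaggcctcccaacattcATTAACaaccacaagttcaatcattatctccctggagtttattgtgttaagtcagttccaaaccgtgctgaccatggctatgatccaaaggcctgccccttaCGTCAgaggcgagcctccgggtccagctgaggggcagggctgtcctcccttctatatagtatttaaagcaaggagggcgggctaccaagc
Acadm: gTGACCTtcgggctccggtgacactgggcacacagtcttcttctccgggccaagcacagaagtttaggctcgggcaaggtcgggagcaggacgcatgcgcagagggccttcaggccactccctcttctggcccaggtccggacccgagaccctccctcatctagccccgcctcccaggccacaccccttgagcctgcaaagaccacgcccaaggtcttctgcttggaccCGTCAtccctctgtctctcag
Ehhadh: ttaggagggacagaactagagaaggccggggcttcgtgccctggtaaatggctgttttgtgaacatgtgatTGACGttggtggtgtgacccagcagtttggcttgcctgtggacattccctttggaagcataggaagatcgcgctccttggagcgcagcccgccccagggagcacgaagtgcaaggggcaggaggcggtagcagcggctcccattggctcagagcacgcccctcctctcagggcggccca
Pck1 held GTTAAT on the minus strand, beginning 192 bases before the start, and CGTCA on the plus strand 90 bases before it. Acadm held AGGTCA on the minus strand 249 bases before the start and CGTCA on the plus strand 21 bases before it. Ehhadh held CGTCA alone, on the minus strand 179 bases before the start. Such short words are common: among all 32851 RefSeq promoters of that length, 14% held AGGTCA, 6.43% GTTAAT and 17.8% CGTCA. Only 5 of the 10 fasting genes had a promoter entry, and Cyp4a14 and Cyp4a10 were not among them. List genes were counted with 1 promoter each, while the 32851 were not limited to 1 per gene. The AGGTCA word was found in 2 of 5 promoters of the fasting list, 4 of 15 of the fatty acid oxidation list and 6 of 28 of the proximal tubule lists. GTTAAT was found in 1 of 5, 2 of 15 and 5 of 28, and CGTCA in 0 of 5, 4 of 15 and 2 of 28. The direct repeat AGGTCANAGGTCA, which PPAR alpha and RXR bind, was in none of these and in 0.0335% of all promoters. A match is only a match of letters, and no match says only that the letters are not in this window.

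Some genes of tubule metabolism were higher in replicates 1 and 2, and those named here were picked after their values were seen. Of the 16 general proximal tubule markers, 7 were highest in replicate 1 or 2, near the 48.1% of all genes at 1 RPKM or more. Beside Gatm and Miox, these values ran the same way for Ass1, argininosuccinate synthetase of the kidney's arginine synthesis, with 985, 1156, 696 and 722 RPKM, and Keg1, a glycine acyltransferase-like gene, with 1585, 1696, 1054 and 1046 RPKM. Glyat, a glycine acyltransferase, had 512, 556, 381 and 401 RPKM. Gldc, which cleaves glycine, and arginase Arg2 ran against these neighbours in metabolism, at 72.1, 63.5, 122 and 122 RPKM and 20.6, 18.3, 33.7 and 35.6 RPKM. The list of arginine, creatine and glycine genes therefore had a small median deviation, 0.06, 0.13, -0.09 and -0.11, while its members differed in direction. Of heat shock genes, Hspa8 had 2044, 2018, 1623 and 1705 RPKM and Hsph1 50.8, 44.5, 32.3 and 36.9 RPKM, and 0 of the 7 were highest in replicate 3 or 4, compared with 51.9% of all genes at 1 RPKM or more. The kidney androgen-response list was mixed, since Kap was highest in replicate 4 while the medium-chain acyl-CoA synthetase Acsm3 had 20.1, 12.2, 3.29 and 4.54 RPKM and ornithine decarboxylase Odc1 99.3, 96.3, 68.9 and 62.1 RPKM.

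Markers of fat and blood differed widely between libraries. All 5 adipose genes were highest in replicate 1, and all 5 had a spread over 2-fold. Among all genes at 1 RPKM or more, these shares were 23.4% and 11.1%. As the adipose list was also chosen with earlier results known, the counts only describe it. The fatty acid carrier Fabp4, which capillary endothelium also makes, had 450.5, 82.2, 115 and 148 RPKM, and adipsin, Cfd, had 85.8, 9.68, 21.7 and 34.6 RPKM. Ucp1, the uncoupling protein of brown fat, had 81.8, 6.63, 3.83 and 5.07 RPKM, Adipoq (adiponectin) 36.8, 2.62, 6.57 and 13.02 RPKM and Cidea, a lipid droplet protein, 30.9, 2.47, 4.99 and 6.98 RPKM. Summed over the 5 genes, adipose markers reached 686, 104, 152 and 208 RPKM. Haemoglobin genes and Alas2, the red cell enzyme of heme synthesis, summed to 1572, 501, 662 and 1159 RPKM, highest in replicate 1 and lowest in replicate 2. The copies Hba-a1 and Hba-a2, and Hbb-bs and Hbb-bt, are close to each other, so their sum is the safer value. Renin, Ren1, was also highest in replicate 1, at 82.1, 39.2, 22.5 and 26.7 RPKM. Akr1b7, the other juxtaglomerular marker, ran the other way at 0.983, 1.49, 2.45 and 1.97 RPKM, lowest in replicate 1 and highest in replicate 3. Replicates 1 and 2, both low for fasting genes, were the highest and the lowest for both marker sums. The part of fat or blood in the fasting genes and in the other values was not tested.

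Markers of tubule injury were uneven in level, and 2 of 9 measured averaged at least 100 RPKM. Kim-1, Havcr1, averaged 0.220 ± 0.146 RPKM and NGAL, Lcn2, 3.93 ± 0.668 RPKM, both known for their rise in injured tubules. Fga and Fgg, fibrinogen chains that injured tubules make, had 11.2, 10.1, 23.2 and 24.3 and 5.11, 6.43, 10.7 and 15.6 RPKM, higher in replicates 3 and 4, while Fgb averaged 0.892 ± 0.0720 RPKM. The injury list's highest gene was Spp1, at 1771, 1816, 1452 and 1578 RPKM, which healthy thick limb and collecting duct also make. The next was Clu (clusterin), a secreted chaperone, at 229.8, 237, 197 and 179.7 RPKM. Immediate early genes, which respond within minutes to handling of the tissue, were low, with Fos at 0.831, 0.697, 1.46 and 1.08 RPKM, Jun at 9.97, 8.95, 11.00 and 8.31 RPKM and Egr1 at 2.32, 1.86, 5.09 and 4.07 RPKM. Egr1 was highest in replicate 3, and 10 of the 13 genes of this list with a mean of at least 1 RPKM were lowest in replicate 2, compared with 24.9% of all genes at 1 RPKM or more. Interferon-response genes were at a median of 9.67 RPKM, with Ifit1 at 4.78, 7.74, 3.94 and 3.14 RPKM, highest in replicate 2.

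Clock genes at 1 RPKM or more numbered 15, and 2 of them, Bhlhe40 and Dbp, had a spread over 2-fold. That share is near the 11.1% of all genes at this level. Nr1d1, a repressor that peaks in the light phase in mouse tissues, stood above the activator it represses. Nr1d1 (REV-ERB alpha) had 35.6, 35.04, 38.8 and 36.8 RPKM and Arntl (BMAL1) had 1.18, 1.31, 1.97 and 1.52 RPKM, a ratio of 30.3, 26.8, 19.7 and 24.2. The output factors Tef and Hlf averaged 104 ± 12.4 and 51.02 ± 4.51 RPKM and Dbp 22.7, 21.3, 11.2 and 18.7 RPKM. Per2 had 9.42, 9.65, 6.76 and 9.10 RPKM and Per3 11.6, 11.6, 10.03 and 10.03 RPKM. Bhlhe40, a repressor that also answers to feeding and stress, differed most, at 76.1, 61.7, 44.2 and 31.1 RPKM. The time of day at which tissue was taken is not given in the labels.

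Several of the most variable genes at 10 RPKM or more differed in 1 library. Ttr (transthyretin), a carrier of thyroid hormone and retinol-binding protein, had 35.3, 34.5, 0.806 and 34.2 RPKM, so it was near 0 in replicate 3 and even in the other three. Ip6k1, an inositol phosphate kinase, had 11.1, 13.2, 179 and 17.8 RPKM, and Ly6f had 2.82, 3.87, 12.03 and 60.4 RPKM. Tceanc2 was high in replicates 3 and 4, at 6.57, 5.86, 62.4 and 55.98 RPKM, and Nckipsd high in replicate 4 only, at 4.35, 4.38, 5.27 and 38.7 RPKM. Zfp618 had 2.22, 37.9, 24.2 and 14.4 RPKM and Cacnb4, a calcium channel beta subunit, 1.97, 29.5, 8.77 and 23.1 RPKM, both lowest in replicate 1. Of the 15 most variable genes, 4 were highest in replicate 1, 2 in replicate 2, 2 in replicate 3 and 7 in replicate 4. At the other end, the GTPase Rac1 had 121, 122, 121 and 120.4 RPKM, the non-muscle myosin Myh9 51.8, 51.8, 51.9 and 52.3 RPKM and sepiapterin reductase Spr 56.03, 56.4, 55.6 and 56.00 RPKM. The mitochondrial calcium uniporter Mcu was as even at 13.8, 13.9, 13.95 and 14.1 RPKM.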

How the data were processed

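The authors deposited 1 table of RPKM values per gene and library, of which the 4 columns of wild-type mice on water were used. Salmon 1.5.2 and edgeR 3.34.0 are named without their roles, and GRCm39 and mm10 without a role, per the submitters' processing notes. The build and annotation used for RPKM are not given in the sources used here. Each of the 13430 gene IDs matched a symbol of GENCODE M21 (GRCm38). Depth is unknown, because low RPKM values show no steps of single reads, and a 0 can be a failed estimate.

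Means, SDs, ranks, list medians and log2(RPKM + 0.1) deviations were computed with Python 3.11.15, numpy 2.4.6 and pandas 2.3.3. The procedure was tested on simulated data with known spread. The members, gene lists and limits were chosen with earlier results of these data known. The text may name list members, the 13 mitochondrial genes, the 30 highest nuclear genes, and the 15 most variable and 10 steadiest genes at a mean of 10 RPKM or more. No test was run, since 4 libraries of 1 group hold no contrast. Some genes within the counts are not reported here. The alternatives were other pseudocounts, filters, scaling and list summaries, and leaving out each library. The labels name 4 animals, and no litter or batch.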

Additional observations from a re-analysis of the deposited data

Results flagged for a closer look

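In 29 of 536 values, or 5.41%, 1 of the 4 libraries stood apart, meaning that its gap to the nearest other library as a share of the whole range exceeded Dixon's critical value. Chance gives about 1 in 20, or 5%, for independent values that were not picked by their spread. The values here include genes picked for their spread in these 4 libraries and sums of listed genes. The share found therefore cannot be weighed against 5%. By library, 10 of these values lay in replicate 1, 5 in replicate 2, 7 in replicate 3 and 7 in replicate 4.

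Replicate 1 stood above the other libraries in RPKM for Cidea at 30.9 (2.47 to 6.98 in the others), Cyp4a12a at 3.73 (1.14 to 1.53 in the others) and Jund at 26.6 (22.6 to 23.1 in the others). It also stood above them for Krt5 at 1.70 (1.29 to 1.36 in the others) and Ucp1 at 81.8 (3.83 to 6.63 in the others). Replicate 1 stood below the other libraries in RPKM for Abcc4 at 33.3 (43.3 to 43.7 in the others), Abcg2 at 239.7 (276 to 282 in the others) and Fxyd2 at 363 (413 to 421 in the others). It also stood below them for Ggt1 at 333 (380.3 to 388 in the others) and Kcnj10 at 16.7 (19.9 to 20.4 in the others). Replicate 2 stood above the other libraries in RPKM for Atf3 at 0.887 (0.419 to 0.431 in the others) and Nr1d2 at 47.6 (39.3 to 40.1 in the others). Replicate 2 stood below the other libraries in RPKM for Acads at 48.1 (61.7 to 62.9 in the others), Csf1r at 12.3 (14.6 to 14.8 in the others) and Per1 at 13.4 (16.2 to 16.7 in the others). Replicate 3 stood above the other libraries in RPKM for Bst1 at 14.4 (6.48 to 7.75 in the others), Ip6k1 at 179 (11.1 to 17.8 in the others) and Klk1 at 1551 (1272 to 1314 in the others). It also stood above them for Slc26a6 at 1.35 (0.340 to 0.456 in the others) and Upk2 at 5.58 (1.52 to 2.15 in the others). Replicate 3 stood below the other libraries in RPKM for Kcnk5 at 17.9 (20.03 to 20.4 in the others) and Ttr at 0.806 (34.2 to 35.3 in the others). Replicate 4 stood above the other libraries in RPKM for Anpep at 71.9 (34.4 to 39.5 in the others), Ly6f at 60.4 (2.82 to 12.0 in the others) and Nckipsd at 38.7 (4.35 to 5.27 in the others). It also stood above them for Scnn1g at 18.1 (14.1 to 14.5 in the others) and the sum of the glycolysis list at 4702 (4203 to 4217 in the others). Replicate 4 stood below the other libraries in RPKM for Fxyd4 at 3.31 (4.59 to 4.76 in the others) and Sucla2 at 170.2 (179.5 to 181 in the others).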

How the results depend on the processing

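No paired analysis was possible because the 4 libraries form 1 group and no contrast was fitted. The 10 highest genes held 70.7% and the 100 highest 79.1% of summed RPKM when mitochondrially encoded genes were kept, against 9.47% and 24.7% of the nuclear sum without them. The count of genes with a spread over 2-fold was 1314, and it was 830 with a pseudocount of 1, 2036 with no filter on low values and 270 at a mean of at least 10 RPKM; the last 2 differ by construction in the genes counted. With each library left out in turn it lay between 929 and 986, as 3 libraries span less than 4. Over the same 4 omissions, the median SD of log2 was 0.160 to 0.171, the mitochondrial share 72.2% to 73.4%, the share of the 10 highest nuclear genes 8.95% to 9.87%, and 28 to 30 of the 30 highest genes were shared. The lists with a deviation range over 0.5, whose alternatives were chosen after seeing the data, numbered 4 to 5 with a library left out and 3 with a pseudocount of 1. Under median-of-ratios scaling, 1321 genes had a spread over 2-fold and the median SD was 0.177, compared with 1314 and 0.178. The shares of summed RPKM were not computed under it. This scaling moved no gene mean or list median past the spread between libraries. Taking the mean of log2 over members in place of the median moved 29 of 49 list medians past that spread, so list levels are tied to the summary used, and 10 lists then reached 100 RPKM against 14. Depth limits the low values in an unknown way.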
